A study of Rattus norvegicus with 4 samples.

Results

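The genes described here are 47 interferon-stimulated and antigen presentation genes, chosen by name as genes of known antiviral and antigen presentation pathways. Earlier results of these data were known when they were chosen, so the choice is not independent of the data. They were measured in neonatal rat ventricular myocytes. Such cells are cultured directly from the hearts of newborn animals, and they were kept here in DMEM without serum, with the Nutridoma supplement. Total RNA was sequenced from 2 libraries of cells given the solvent DMSO, called vehicle, and from 2 libraries of cells given 3 µM TMP195, each for 48 h. TMP195 is a selective inhibitor of the class IIa histone deacetylases, the family of HDAC4, HDAC5, HDAC7 and HDAC9, and the comparison addresses how it alters gene expression in these cells. Of the 47 genes, 43 were found among the 17147 genes of the deposited table, and Ifi44l, Parp12, Herc6 and Nlrc5 were not analysed here. Cxcl9 and Tap2 were listed at 0 in all 4 libraries. Col1a2 was also listed at 0, beside values of 47643 to 69970 for its partner chain Col1a1, so a listed 0 is not proof that the message was missing. The remaining 41 genes were tested, which are 12 sensors and transcription factors, 24 effectors and 5 antigen presentation genes. The labels give no genotype or strain, nor whether each library had its own culture, so the p-values measure how far these libraries spread, and that spread may be technical only.

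Cells detect viral nucleic acid through cytosolic helicases such as RIG-I and MDA5 and endosomal receptors such as Tlr3, which switch on the transcription factors Irf3 and Irf7 and, through them, the type I interferon genes. Secreted interferon signals through its receptor and the kinases Jak1 and Tyk2 to a complex that holds Stat2 and Irf9. That complex binds the interferon-stimulated response element, or ISRE, and induces antiviral effectors, further sensors and the machinery that loads peptides on MHC class I. Heart muscle cells and the stromal cells around them keep a low level of many of these genes without infection.

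Interferon-stimulated genes were lower with TMP195 or did not pass the test, and none was higher. By limma with Benjamini-Hochberg adjustment over all 12689 genes tested, 9 of the 41 fell at an adjusted p under 0.05, against a background of 10.3% of all tested genes. None of the 41 was called higher, against a background of 9.93%. At an unadjusted p under 0.05, 14 were lower and 0 higher, beside 3945 of all 12689 genes in either direction. Limma-voom called 10 lower and 0 higher, beside 11.7% of all genes lower and 1137 of 12689 higher. The same all-gene counts stand beside the unadjusted and limma-voom counts of each list below. The 9 that fell were Irf7, Dtx3l, Trim25, Parp14, Parp9, Mx2, Cxcl10, Ddx58 and B2m. The median log2 fold change of the 41 genes was -0.35, beside -0.01 for all genes tested. It was negative in 36 of 41, beside 6439 of 12688 gene names tested. In 20 of the 41, both TMP195 libraries lay below both vehicle libraries, against 28.7% of all genes, while Ifit2 alone lay above both, against 28%, and the other 20 overlapped. Calls depend on level, so genes of a like level were also counted. Among the 15 genes with a mean of 100 to 600, 7 fell, beside 12.3% of all genes in that range, and 9 lay below both vehicle libraries, beside 29.6%. Among the 20 with a mean of 10 to 100, 1 fell, beside 6.23% of all genes there, and 10 of these 20 lay below both vehicle libraries, beside 32.4%. The plot of change against level shows the genes among all those tested.

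Leaving out 1 library ended most of these calls. Without vehicle 1, without vehicle 2 or without TMP195 2, limma called 0 genes of any kind, and without TMP195 1 the members it called were Irf7, Dtx3l and Trim25. With genes of a mean under 100 also left out, 16 to 19 members stayed in the fit. Their median log2 fold change was -0.31 without vehicle 1, -0.33 without vehicle 2, -0.46 without TMP195 1 and -0.24 without TMP195 2. Each gene's variance came there from the fitted trend alone, so calls from these fits are not counted.

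**Figure D1:**
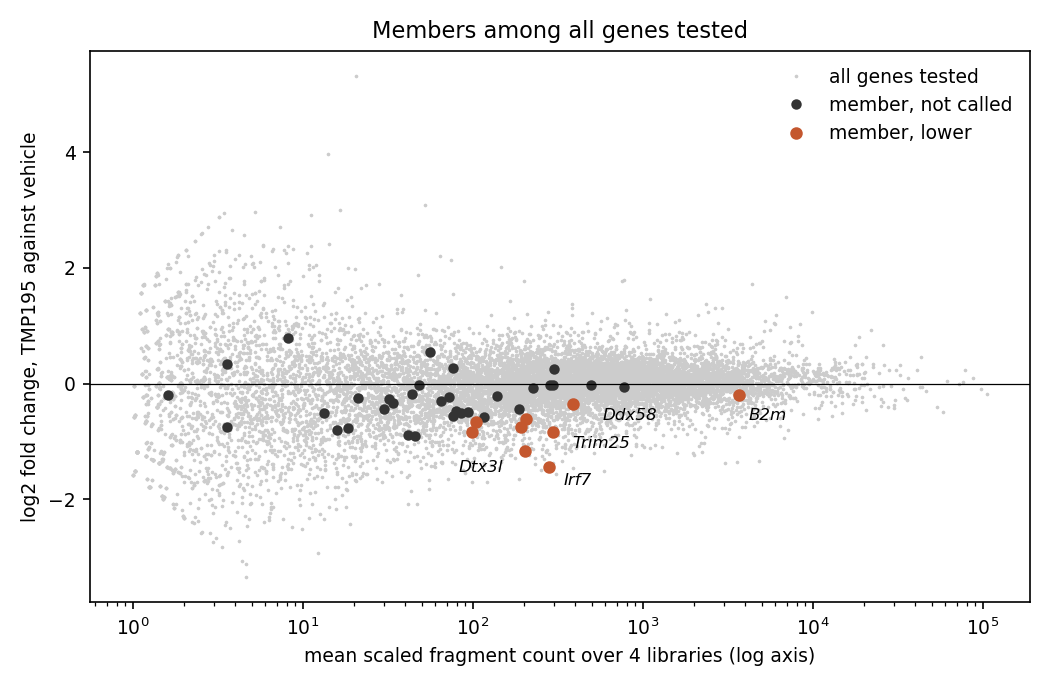
Log2 fold change of TMP195 against vehicle (vertical axis) against the mean scaled fragment count over the 4 libraries (horizontal axis, log scale), for all 12689 genes tested (grey), for interferon-stimulated and antigen presentation genes that did not pass the test (black) and for the 9 that fell (orange). Of the genes that fell, 7 have a mean between 100 and 600, and B2m stands at a mean of 3647.

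Values are scaled fragment counts, the authors' estimated fragments per gene multiplied by a factor near 1 for each library. Depth was 11768466 to 14232156 fragments per library, and the 43 genes together took 0.0651 to 0.0835% of each. The lowest value behind a called gene was 64 fragments, for Mx2 with TMP195, so a called value below 100 carries appreciable counting error. Between the 2 libraries of a group, the higher value exceeded the lower by a median ratio of 1.15 in vehicle and 1.15 in TMP195, over the 37 genes with a mean of 10 or more. The largest such ratio was 2.04 in vehicle, for Tap1, and 4.03 in TMP195, for Dhx58. Vehicle 1 held the highest value of 23 genes, vehicle 2 of 12, TMP195 1 of 4 and TMP195 2 of 2. TMP195 2 held the lowest value of 19 genes and TMP195 1 of 11.

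Per kilobase of transcript, in the FPKM that the authors deposited for 41 of the 47 genes, B2m stood highest at a mean of 159 over the 4 libraries. Ifi27 followed at a mean FPKM of 91.5, and then Irf2 at 17.2, Tapbp at 15.5, Trim25 at 14.4, Irf3 at 12.9, Irf7 at 11.3 and Stat2 at 10.8. A further 25 genes had a mean FPKM of 1 to 10 and 7 lay above 0 and under 1, among them Mx1 at 0.193, Irf8 at 0.237 and Dhx58 at 0.435. B2m and Ifi27 thus gave most of the message per length, and each Mx, Oas and Ifit gene had a mean FPKM under 7.

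The ISRE core, GAAA followed by any 2 bases and a second GAAA, was searched on both strands of the 36 members' promoter windows held in RefSeq (assembly GRCr8), from 250 bases before to 50 after the start of the gene. It was found in 20 of 36 windows, or 55.6%, beside 3.77% of the 27457 windows of all genes. The second motif, the core TTCNNNGAA of the GAS element, the interferon-gamma activated site, was found in 9 of 36, or 25.0%, beside 8.68% of all windows. In Bst2 a match of one motif overlapped a match of the other. The genes were chosen as interferon-response genes, so these shares describe that choice. An ISRE core was present in 2 of 9 windows of sensors and transcription factors, 14 of 22 of effectors and 4 of 5 of antigen presentation genes. Of the 17 tested genes with a match, 5 fell and their median log2 fold change was -0.29. Of the 14 tested genes whose window held no match, 2 fell, with a median of -0.33, and of the 10 with no window, 2 fell, with a median of -0.51. No test was made of the difference between these medians.

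Among the sensors and transcription factors, Irf7 had the deepest decrease and the other factors of the same family did not pass the test. The group had 12 tested genes, of which 2 fell (Irf7 and Ddx58), or 16.7% beside 10.3% of all genes, and 10 did not pass, with a median log2 fold change of -0.28. Irf7, the factor that amplifies type I interferon transcription and is itself interferon-induced, measured 450.4 and 366.5 scaled fragments in vehicle 1 and 2 and 152.0 and 146.7 in TMP195 1 and 2. Both vehicle values were more than 2 times the TMP195 values, and the groups did not overlap. The log2 fold change reached -1.44 (SE 0.15, n = 2 libraries per group, limma adjusted p = 2.90e-08), so that TMP195 stood at 36.9% of vehicle (95% confidence interval of the fold 0.297 to 0.459). With 1 library left out, its adjusted p was 0.183 without vehicle 1, 0.135 without vehicle 2, 0.0161 without TMP195 1 and 0.0704 without TMP195 2. The 250 bases before the Irf7 start are shown because this gene has the largest decrease and the window holds an ISRE core. The sequence is from RefSeq, assembly GRCr8, chr1:205800024-205800273, minus strand, printed 5′ to 3′ along the gene, with the match in capitals. The match begins 69 bases before the start and reads as the ISRE core on the opposite strand.
Irf7: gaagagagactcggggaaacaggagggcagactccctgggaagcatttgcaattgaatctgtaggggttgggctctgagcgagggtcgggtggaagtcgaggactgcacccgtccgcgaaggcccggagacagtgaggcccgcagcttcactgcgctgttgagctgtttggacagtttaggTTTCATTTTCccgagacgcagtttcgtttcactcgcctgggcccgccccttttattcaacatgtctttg

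Ddx58, which encodes the RNA helicase RIG-I and is now named Rig1 in RefSeq, measured 438.1 and 431.8 in vehicle and 368.2 and 315.5 in TMP195. All TMP195 values lay below all vehicle values, and the vehicle pair was much the tighter. The log2 fold change was -0.35 (SE 0.13, n = 2 per group, limma adjusted p = 0.0479), close to the threshold. The adjusted p was 0.0616 with a pseudocount of 0.1, 0.0827 with no filter on low values, and 0.111 to 0.347 with 1 library left out, so the call ended in each of these. Ifih1, which encodes MDA5, the other cytosolic RNA helicase sensor, measured 141.3 and 134.8 in vehicle and 94.0 and 91.1 in TMP195, and also did not overlap. Its log2 fold change of -0.57 just missed the threshold (limma adjusted p = 0.0581), and it passed in 4 alternatives, with an adjusted p of 0.0351 to 0.0475.

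Stat2, a subunit of the interferon signalling complex, had the highest mean scaled fragment count of the group, although Irf2, Irf3 and Irf7 had a higher mean FPKM. It measured 524.4 and 470.8 in vehicle and 497.4 and 479.5 in TMP195. The TMP195 values lay inside the vehicle pair. The log2 fold change was -0.02, with a 95% confidence interval of -0.26 to 0.21, so a decrease as deep as that of Irf7 lies outside its interval. Irf2, a factor that competes with Irf1 at its sites, measured 257.9 and 313.8 in vehicle and 274.2 and 282.9 in TMP195, again inside the vehicle pair. Irf3, the constitutively present factor that the sensors activate first, had a log2 fold change of -0.08 with an interval of -0.42 to 0.26. Irf9, the DNA-binding subunit of the complex with Stat2, had a log2 fold change of -0.45 and did not pass (limma adjusted p = 0.108). Its 2 TMP195 values were 195.1 and 124.7, and the first of them was above vehicle 2 at 194.8. The remaining members, Irf1, Irf5, Irf8, Dhx58 and Tlr3, had log2 fold changes from -0.51 to 0.34 with none called, and Irf8, a myeloid factor, never exceeded a value of 5.27. In sum over the 12 genes, scaled fragments were 2591 and 2442 in vehicle and 2044 and 1915 in TMP195, a ratio of 0.787.

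**Figure D2:**
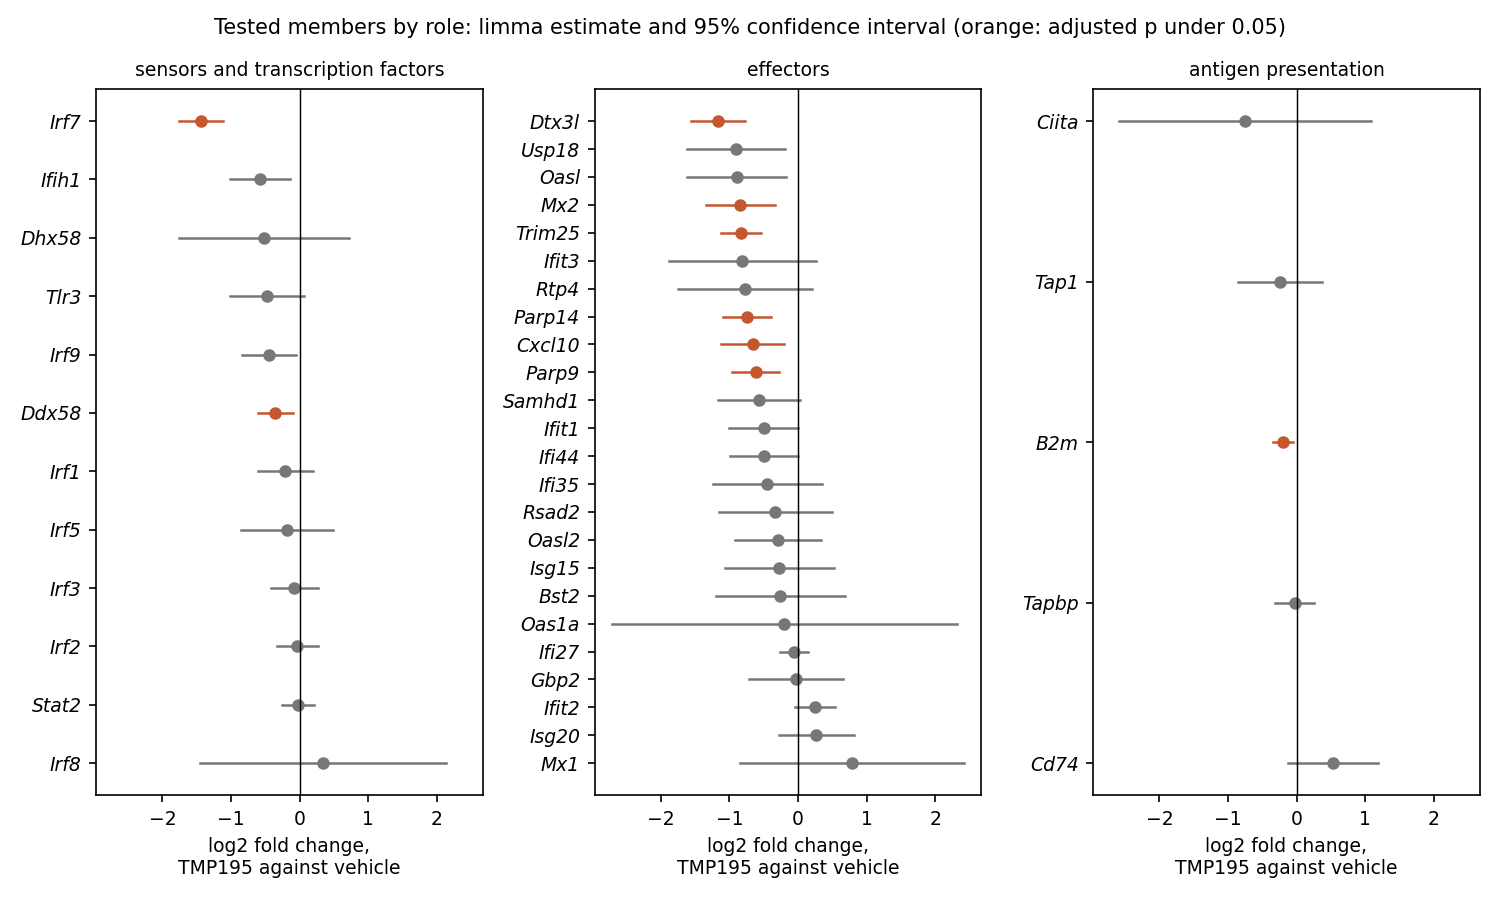
Log2 fold change of TMP195 against vehicle for each of the 41 tested genes in their 3 roles (horizontal axis), as the limma estimate (point) with its 95% confidence interval (bar). Orange marks the 9 genes with an adjusted p under 0.05, all to the left of 0, from Irf7 at -1.44 to B2m at -0.20, and genes with few fragments such as Oas1a and Ciita have the widest intervals.

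Effectors were 24 of the 41 genes tested and held 6 of the 9 that fell, and no test was made of a difference between the roles. The 6 were Dtx3l, Trim25, Parp14, Parp9, Mx2 and Cxcl10, or 25% of the effectors tested beside 10.3% of all genes. The other 18 did not pass and 0 rose, with 0 higher also at an unadjusted p under 0.05 in limma and in limma-voom. The median log2 fold change was -0.50, and 21 of 24 were negative. In 13 of 24 both TMP195 libraries lay below both vehicle libraries, beside 28.7% of all genes. The sum over the 25 effectors in the table was 3326 and 3167 in vehicle and 2600 and 2331 in TMP195, a ratio of 0.759.

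The ADP-ribosylation genes Dtx3l, Parp9 and Parp14 fell together. Dtx3l encodes a ubiquitin ligase that works in a complex with Parp9, and it measured 265.5 and 287.5 in vehicle and 155.5 and 96.9 in TMP195. Every vehicle value was above every TMP195 value, although the TMP195 pair was itself far apart. Its log2 fold change was -1.16 (SE 0.19, n = 2 per group, limma adjusted p = 3.52e-05), the second deepest of all members, and it was -0.82 without TMP195 2 and -1.50 without TMP195 1. Parp9, its catalytically restrained partner of the PARP family, measured 261.7 and 235.9 in vehicle and 178.4 and 146.7 in TMP195, and its log2 difference was -0.62 (SE 0.17, limma adjusted p = 0.00821). Parp14, a mono-ADP-ribosyltransferase, measured 227.6 and 251.7 in vehicle and 152.0 and 133.3 in TMP195, and its log2 difference was -0.75 (SE 0.17, limma adjusted p = 0.00189). None of these pairs overlapped. With 1 library left out, the adjusted p was 0.0159 to 0.236 for Dtx3l, 0.0770 to 0.271 for Parp9 and 0.0644 to 0.190 for Parp14, and Dtx3l kept its call without TMP195 1.

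These 3 genes neighbour each other on chromosome 11 of the RefSeq annotation (GRCr8), where Dtx3l and Parp9 overlap. The table gives no strand, so reads from the overlap of Dtx3l and Parp9 cannot be told apart and their values are uncertain to that extent. The genes on either side were not called lower. Kpna1, an importin next to Dtx3l, rose from 956.8 and 1152 to 1615 and 1439, a log2 fold change of 0.54 (limma adjusted p = 7.45e-05). Wdr5b on that side had -0.39 (adjusted p = 0.459) and Hspbap1 next to Parp14 had 0.32 (adjusted p = 0.506), and neither passed. Promoter sequence is shown for Parp14 and Dtx3l, the members of the cluster with an ISRE core in the window, with the match in capitals, from RefSeq GRCr8 and 5′ to 3′ along the gene. For Parp14 it is the 250 bases before the start, chr11:78407884-78408133, plus strand, with the match 76 bases before the start. For Dtx3l it is 30 bases from the start onward, chr11:78320225-78320254, plus strand, with the match 10 bases after the start. The window of Parp9 held no match to these letters.
Parp14: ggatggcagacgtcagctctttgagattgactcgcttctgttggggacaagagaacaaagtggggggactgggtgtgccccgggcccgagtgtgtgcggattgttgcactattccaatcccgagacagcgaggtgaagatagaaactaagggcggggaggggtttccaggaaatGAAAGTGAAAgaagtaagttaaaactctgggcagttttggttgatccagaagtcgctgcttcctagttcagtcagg
Dtx3l: cccgggaaacGAAACTGAAActttgcctct

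Trim25, a ubiquitin ligase that acts with RIG-I in antiviral signalling, measured 374.6 and 386.5 in vehicle and 223.2 and 203.3 in TMP195. The 2 groups were well apart and each pair was close. The log2 fold change was -0.83 (SE 0.14, n = 2 per group, limma adjusted p = 4.85e-05), and with 1 library left out the adjusted p was 0.0299 without TMP195 1 and 0.0931 to 0.183 without each other library. The dynamin-like antiviral GTPase Mx2 measured 148.9 and 105.3 in vehicle and 78.2 and 61.4 in TMP195. These do not overlap, but the vehicle pair is wide. Its log2 fold change was -0.84 (SE 0.25, limma adjusted p = 0.0133, and 0.0590 with no filter on low values). The paralog Mx1 measured 14.2 and 1.05 in vehicle and 9.67 and 7.67 in TMP195, overlapping, with a log2 fold change of 0.78 and an interval of -0.85 to 2.42. Mx1 and Mx2 are similar in sequence, as are Oasl and Oasl2 and Ifi27 and its neighbour Ifi27l2b, so reads could be split between copies and these values are uncertain.

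Cxcl10, the chemokine that attracts T cells through Cxcr3, measured 129.0 and 126.4 in vehicle and 73.8 and 87.3 in TMP195. Both vehicle values were nearly equal and both TMP195 values were below them. On the log2 scale the change was -0.66 (SE 0.23, limma adjusted p = 0.0367, and 0.0730 with no filter on low values). Cxcl10 lies within Art3 in the annotation, so reads of Art3 could add to it. With 1 library left out, the adjusted p was 0.125 to 0.326 for Mx2 and 0.182 to 0.265 for Cxcl10. The 250 bases before the Cxcl10 start, chr14:15988816-15989065, plus strand, are shown because it is the secreted product among the genes that fell. The match in capitals begins 243 bases before the start.
Cxcl10: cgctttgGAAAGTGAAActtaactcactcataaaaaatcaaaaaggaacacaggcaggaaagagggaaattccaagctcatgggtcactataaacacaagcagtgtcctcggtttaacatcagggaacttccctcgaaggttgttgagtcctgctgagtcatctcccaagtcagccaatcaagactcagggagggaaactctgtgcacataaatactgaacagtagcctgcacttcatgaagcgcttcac

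Ifi27 and Ifit2, the effectors with the highest scaled fragment counts, did not pass, and Trim25, which fell, came next to them in count. Ifi27, a small interferon-induced membrane protein, measured 823.1 and 742.5 in vehicle and 789.1 and 715.5 in TMP195, overlapping, with a log2 fold change of -0.06 and a 95% interval of -0.26 to 0.15. Ifit2, an RNA-binding protein of the Ifit family, measured 289.2 and 257.0 in vehicle and 341.8 and 306.9 in TMP195. It was the only member with both TMP195 libraries above both vehicle libraries, and its log2 fold change of 0.25 did not pass (limma adjusted p = 0.235). Its neighbours and relatives Ifit1 and Ifit3 had log2 fold changes of -0.50 and -0.81 and did not pass either (limma adjusted p = 0.161 and 0.308), and the difference from Ifit2 was not tested. Ifit1 overlaps Ifit1bl in the annotation, so its value is uncertain.

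Among effectors, those that came nearest to the threshold without passing were Usp18, which removes Isg15 from proteins and brakes the receptor, and Oasl, an antiviral relative of the oligoadenylate synthetases. Usp18 measured 73.0 and 46.3 in vehicle and 26.4 and 35.5 in TMP195, with a log2 fold change of -0.91 (limma adjusted p = 0.0660). Oasl measured 64.5 and 44.2 in vehicle and 30.8 and 25.9 in TMP195, with a log2 fold change of -0.90 (limma adjusted p = 0.0738). Neither pair overlapped, and both sit in the range of means where 6.23% of all genes fell. Isg15, the ubiquitin-like modifier, was at 43.6 and 27.4 in vehicle and 26.4 and 30.7 in TMP195, overlapping, with a log2 fold change of -0.27. The other 10 effectors tested had log2 fold changes from -0.77 (Rtp4) to 0.27 (Isg20). They include Samhd1, which depletes nucleotides, at -0.56, Ifi44 at -0.49, the viral-release inhibitor Bst2 at -0.26, and Oas1a, at 0 in vehicle 2 and TMP195 2 and under 4 in the other libraries.

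**Figure D3:**
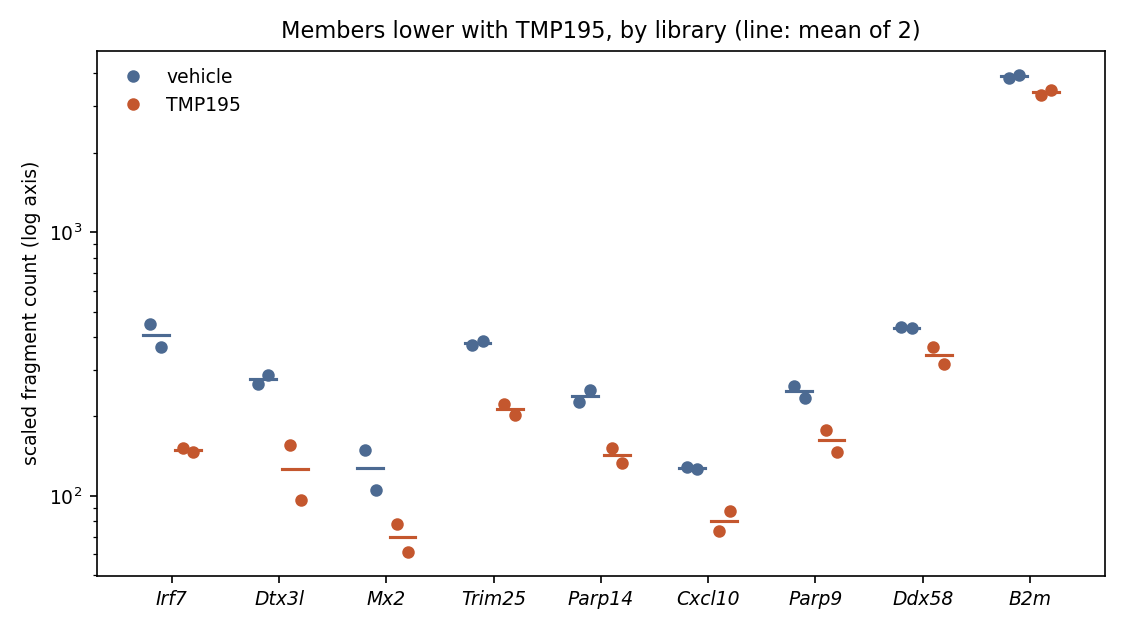
Scaled fragment count (vertical axis, log scale) of the 9 genes that fell, with 1 point per library for vehicle (blue) and TMP195 (orange) and a line at the mean of the 2 libraries. In each gene both TMP195 points lie below both vehicle points, and the distance is widest for Irf7 and narrowest for B2m.

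Antigen presentation genes showed 1 small decrease among the 5 tested, or 20% beside 10.3% of all genes. B2m, the light chain shared by all MHC class I molecules, measured 3845 and 3956 in vehicle and 3314 and 3472 in TMP195. The groups did not overlap, and its many fragments made a small difference detectable. TMP195 stood at 87.0% of vehicle, or -0.20 on the log2 scale (SE 0.07, n = 2 per group, limma adjusted p = 0.0441). This call ended with a pseudocount of 0.1 (adjusted p = 0.0544), with no filter on low values (0.0689) and with each library left out (0.172 to 0.270). Tapbp, the peptide-loading chaperone tapasin, measured 305.3 and 292.8 in vehicle and 275.9 and 312.7 in TMP195, with a log2 fold change of -0.03 and an interval of -0.31 to 0.26. The TMP195 pair spanned the vehicle pair. Tap1, a subunit of the peptide transporter, measured 107.2 and 52.7 in vehicle and 67.7 and 59.5 in TMP195, with a log2 fold change of -0.24 and an interval of -0.85 to 0.37. Its vehicle libraries differed from each other by more than the groups did. Ciita, the master activator of MHC class II genes, was between 0.959 and 4.74 in all libraries, with a log2 fold change of -0.75 and an interval of -2.59 to 1.09. Cd74, the MHC class II invariant chain, measured 37.9 and 51.6 in vehicle and 50.1 and 83.4 in TMP195, with a log2 fold change of 0.54 (limma adjusted p = 0.264). The sum over the 6 genes in the table was 4300 and 4357 in vehicle and 3712 and 3928 in TMP195, a ratio of 0.883 that B2m sets for the most part. Sequence before the B2m start is shown because it is the one antigen presentation gene that fell, chr3:129549080-129549329, plus strand, with the match in capitals 150 bases before the start.
B2m: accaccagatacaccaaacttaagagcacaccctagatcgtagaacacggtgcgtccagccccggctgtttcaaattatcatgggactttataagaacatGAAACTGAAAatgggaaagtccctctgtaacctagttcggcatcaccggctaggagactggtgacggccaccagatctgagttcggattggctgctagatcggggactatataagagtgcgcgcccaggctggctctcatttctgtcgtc

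The receptors and kinases upstream of these members did not pass. Of the 9 genes of the interferon receptors and the JAK-STAT relay that are reported here, limma called 0 lower and 0 higher, with 1 lower and 1 higher at an unadjusted p under 0.05, and limma-voom called 1 lower and 0 higher. Those with the smallest p were Jak2 at -0.27, Ifngr2 at 0.23, Jak1 at 0.10 and Ifngr1 at -0.13 on the log2 scale. No interferon gene reached the level for testing. Ifnb1, Ifna1, Ifna4 and Ifng were listed at 0 in all libraries, and Ifnk had a single value of 1.76 in TMP195 1.

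Of 13 tested adaptors and kinases downstream of the sensors, 3 fell, or 23.1% beside 10.3% of all genes. None rose, beside 9.93% of all genes, with 0 higher also at an unadjusted p under 0.05 in limma and in limma-voom. The median was -0.14. Eif2ak2, the RNA-activated kinase PKR, measured 823.1 and 790.9 in vehicle and 631.8 and 530.4 in TMP195 (log2 fold change -0.48, limma adjusted p = 0.00116). Adar, which edits double-stranded RNA, had -0.39 (adjusted p = 0.00374) and Mavs, the mitochondrial adaptor of RIG-I and MDA5, had -0.41 (adjusted p = 0.0280). Both Eif2ak2 and Adar are themselves interferon-induced. Tlr9 at -2.08, Traf3 at -0.19, Trex1 at 0.21 and Traf6 at 0.19 did not pass.

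Negative regulators did not pass in either direction. Of 12 tested, limma called 0 higher and 0 lower, with 1 higher and 0 lower at an unadjusted p under 0.05 and 0 by limma-voom. Those with the smallest p were Ptpn2 at 0.31, Ptpn6 at 1.05, Socs1, an inhibitor of Janus kinases, at 0.86, and Ptpn11 at 0.13. The median of the list was 0.01.

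Further interferon-stimulated effectors outside the 47 genes had a median near theirs. Of 32 tested, 7 fell, or 21.9% beside 10.3% of all genes, and 0 rose, beside 9.93%. The median log2 fold change was -0.41, and 18 lay below both vehicle libraries, beside 28.7% of all genes. The list was chosen with earlier results of these data known, so it is not independent of them. At an unadjusted p under 0.05, limma had 13 lower and 3 higher, and limma-voom called 8 lower and 0 higher. The 7 were the galectin Lgals9 at -0.78, the galectin-binding protein Lgals3bp at -0.41, the nuclear body protein Sp110 at -0.67, the restriction factor Trim5 at -0.57, Apol9a at -0.71, the entry inhibitor Ifitm3 at -0.36 and the proteasome activator Psme2 at -0.39. Lgals9 showed the smallest adjusted p, at 308.2 and 253.8 in vehicle and 158.2 and 165.9 in TMP195 (limma adjusted p = 0.000646). Phf11 at 2.38, Sp100 at -0.52, Slfn2 at 0.54 and Psme1 at -0.18 did not pass.

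MHC class I and peptide-loading genes moved in both directions. Of 17 tested, 3 rose, or 17.6% beside 9.93% of all genes, and 2 fell, or 11.8% beside 10.3%. The median was -0.09, and no test was made of these shares. The 3 that rose were the endoplasmic reticulum chaperones Canx at 0.28 (limma adjusted p = 0.00370), Pdia3 at 0.27 (0.00530) and Calr at 0.26 (0.00629), which fold glycoproteins in general as well as MHC class I. The 2 that fell were the class I gene RT1-N3 at -1.20 (0.0299) and the aminopeptidase Lnpep at -0.32 (0.00482). RT1-N3 measured 51.2 and 48.4 in vehicle and 30.8 and 14.4 in TMP195, and class I genes of the rat are near-identical copies, so its value is uncertain. RT1-A3 at -1.44, Erap1 at -0.26, RT1-CE5 at 0.29 and Tapbpl at 0.39 did not pass. For MHC class II, 6 of 14 genes were listed at 0 and 6 were tested. Limma called 0 of them, also at an unadjusted p under 0.05 and by limma-voom, with RT1-Db2 at -1.61, Ifi30 at -0.14, Rfx5 at -0.16 and Rfxank at 0.17.

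**Figure D4:**
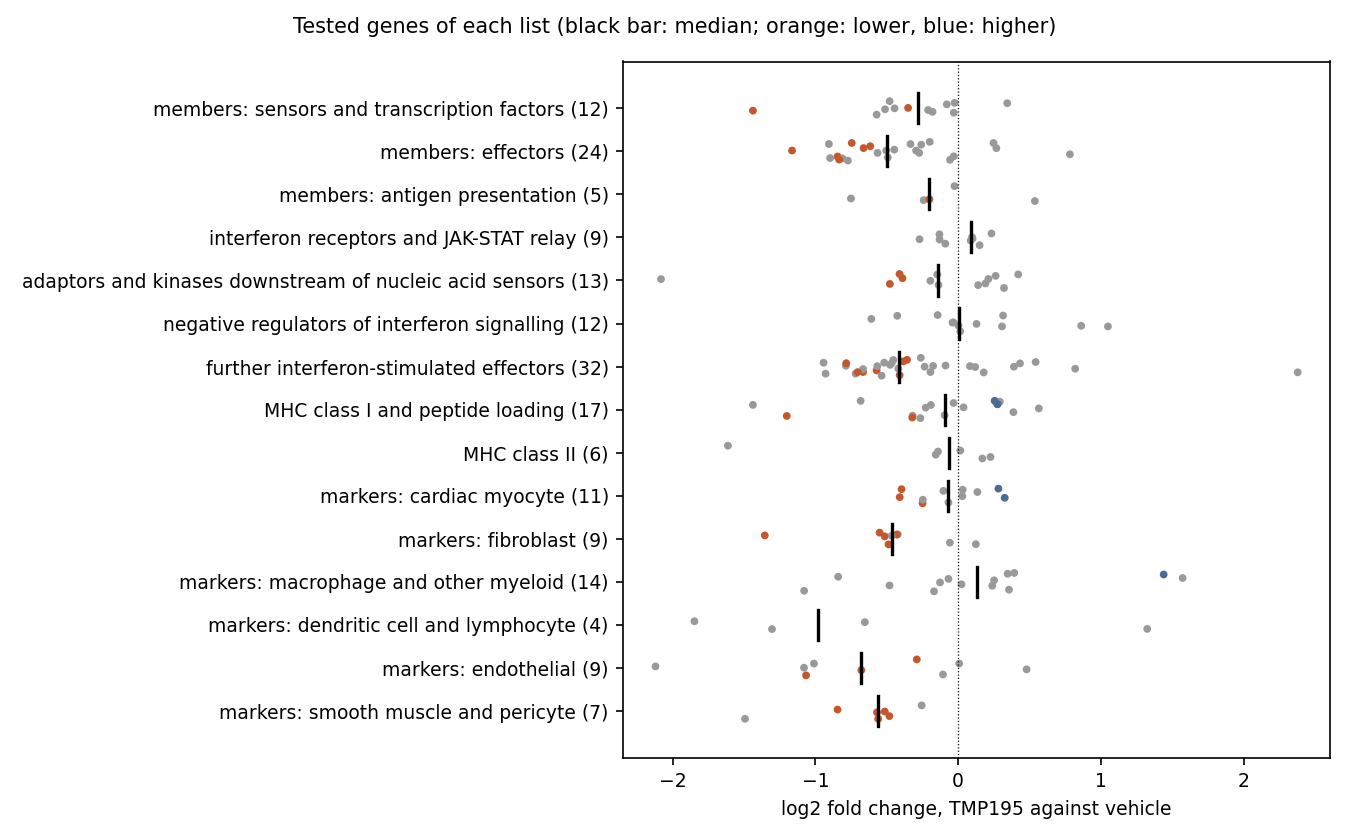
Log2 fold change of TMP195 against vehicle (horizontal axis) for each tested gene of the 3 roles, the surrounding pathway lists and the cell type marker lists, with the number tested in brackets, the median as a black bar, genes that fell in orange and genes that rose in blue. The effectors and the further interferon-stimulated effectors have medians of -0.50 and -0.41, and the fibroblast, endothelial and smooth muscle markers lie at -0.47, -0.68 and -0.56.

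Summed levels of stromal cell markers of the heart were lower with TMP195, and 3 cardiac markers were called lower too. Cardiac markers such as Myh6 and Tnnt2 stood at 74333 to 102349 scaled fragments in the libraries, so defining markers of the labelled cell type were present. Their summed level ranged from 425815 to 427061 in vehicle and from 401679 to 406539 in TMP195, a ratio of 0.948. Of 11 tested, 2 were higher and 3 lower. Beside these calls and those of the marker lists below, 10.3% of all genes were lower and 9.93% higher. The summed level of fibroblast markers ranged from 92937 to 96363 in vehicle and from 68347 to 71226 in TMP195, a ratio of 0.737, and 5 of 9 tested fell. Col1a1 carried most of that sum, at 66449 to 69970 in vehicle and 47643 to 49638 in TMP195, while Dcn at a fold of 0.961 and Postn at 1.09 did not pass. Smooth muscle and pericyte markers ranged from 14588 to 14795 in vehicle and from 9794 to 10563 in TMP195, a ratio of 0.693, and 5 of 7 fell. Acta2, at 7848 to 8051 in vehicle, and Tagln, at 4303 to 4492, carried most of that sum. Endothelial markers ranged from 2386 to 2432 in vehicle and from 1743 to 1841 in TMP195, a ratio of 0.744, and 3 of 9 fell, with Cldn5 listed at 0. Eng carried most of the endothelial sum, at 1734 to 1764 in vehicle and 1374 to 1489 in TMP195. Of the 9 endothelial markers tested, 7 had a negative log2 fold change. Pecam1 at -0.11, Esam at 0.01 and Vwf at 0.48 on the log2 scale did not pass. Esam never exceeded 11.6 scaled fragments and Vwf never exceeded 12.3. In comparison, the 42 members of the table other than B2m summed to 6372 and 6010 in vehicle and 5042 and 4702 in TMP195, a ratio of 0.787. In bulk RNA, fewer cells of a type and less RNA per cell cannot be told apart. The part of these cell types in the decrease of Irf7, Dtx3l, Trim25 and the other genes was not tested.

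**Figure D5:**
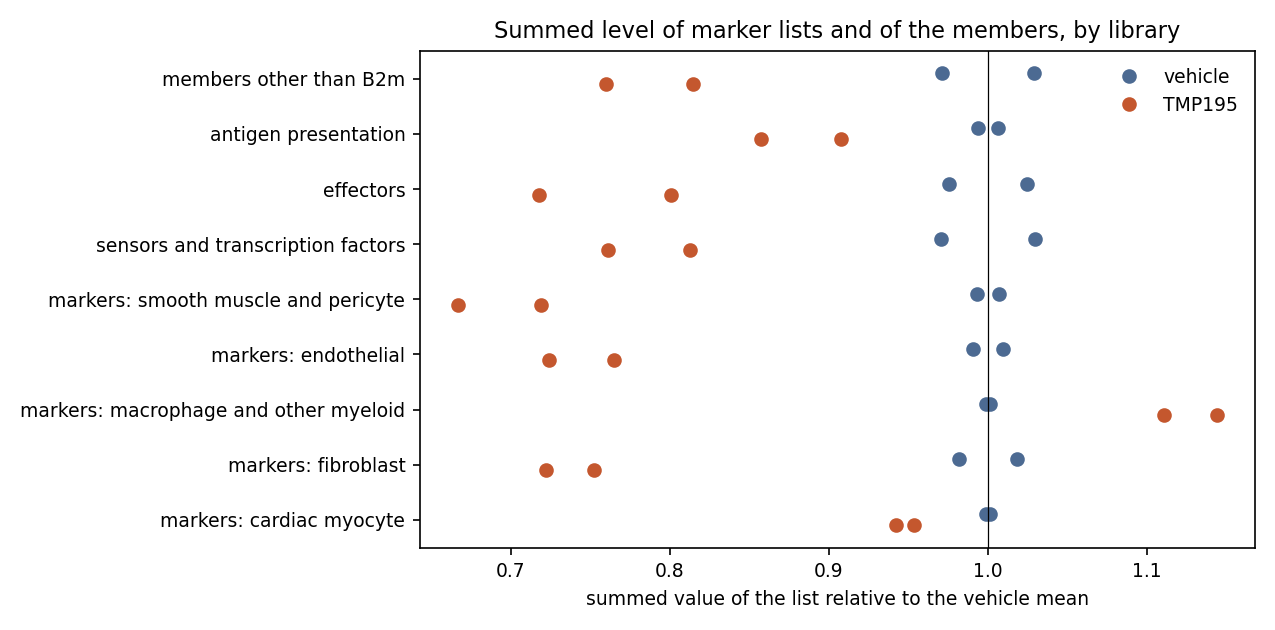
Summed scaled fragment count of the marker lists and of the member groups, relative to the mean of the vehicle libraries (horizontal axis). There is 1 point per library for vehicle (blue) and TMP195 (orange), and the dendritic cell and lymphocyte list is not shown. The members other than B2m average 0.787 with TMP195, beside 0.737 for fibroblast, 0.693 for smooth muscle and pericyte, 0.948 for cardiac and 1.13 for myeloid markers.

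The summed level of macrophage and other myeloid markers ranged from 695.1 to 697.0 in vehicle and from 773.0 to 796.2 in TMP195, a ratio of 1.13. Of 14 tested, limma called 1 higher (Itgam, adjusted p = 0.0436), beside 9.93% of all genes, and 0 lower, with 1 higher and 0 lower at an unadjusted p under 0.05, and limma-voom called 0 in either direction. The log2 fold change was negative in 6 of the 14, and in 8 of the 14 the groups overlapped. Cd68 stood at 101.5 to 157.3 with a log2 fold change of 0.39, while C1qa had -1.08, Aif1 -0.84 and Emr1 -0.48, all at values under 20 and none called. C1qc was at 0 in both vehicle libraries and C1qb at 0 in both TMP195 libraries, and neither exceeded 3.52 elsewhere. Of the dendritic cell and lymphocyte markers, Cd3e, Cd3d and Cd79b were listed at 0, 4 were tested and limma called 0, also at an unadjusted p under 0.05 and by limma-voom. Their summed level ranged from 10.5 to 12.3 in vehicle and from 0.959 to 9.67 in TMP195.

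In the authors' deposited table of lower genes, 5 of the 47 genes were present, at a ratio of mean FPKM with TMP195 to vehicle of 0.703 for Ifit1, 0.671 for Ifih1, 0.560 for Trim25, 0.595 for Parp14 and 0.870 for B2m. That sheet held 623 genes, 5.84% of the 10673 in the authors' FPKM table, and that FPKM table held 41 of the 47 genes. The authors' sheet of higher genes held 594, or 5.57%, and none of the 47. Of the 5, 3 were also among the 9 genes that fell in limma. Irf7 was in neither sheet, with an unadjusted p of 0.101 in the authors' deposited table. For the members, the log2 ratio of FPKM differed from that of the main table by at most 0.00422, so both tables carry the same measurement.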

How the data were processed

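Total RNA of 4 libraries, 2 with vehicle and 2 with 3 µM TMP195, was prepared with RNeasy Plus and Ovation RNA-Seq kits, per the labels' protocols. The submitters' processing notes name Cufflinks. In the sources used here, its version, the aligner and the genome build are not given. The deposited main table holds a signal, namely the authors' estimated fragment counts scaled by 1 factor per library (0.948, 1.05, 0.879 and 0.959), read from the values because, up to 10000 fragments, 99.3 to 99.5% came out whole, within 0.1 fragment, after division by the factor. The authors also deposited FPKM values, p-values and, for their sheets of higher and lower genes, the ratio of group means. These FPKM, p and ratio columns were used as deposited and not tested again.

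The 12689 genes whose mean value was at least 1 were tested on log2(value + 1) with limma 3.58.1 in R 4.3.3 (trend, treatment only, Benjamini-Hochberg over all genes). Residual degrees of freedom were 2 and prior ones 27.4. The scale of the fold changes understates differences of low genes. Samples were grouped by titles and treatment labels, and the fit was checked on simulated data. A chi-square test of fragments between replicates gave 4.90 and 5.98 per gene, so each library was counted separately. Same-numbered libraries did not deviate together (correlation 0.0047), so the numbers were not used as pairs. Planned count tests, and the scaling that needs whole counts, were not run because part of the values are fractional.

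The members and lists were chosen with earlier results of these data known. Per-library values are given for called members and for the 3 per role with the highest mean scaled fragment count. They are given too for genes chosen after their values were seen, namely Ifih1, Irf9, Usp18, Oasl, Isg15, Mx1, Cd74 and genes next to members. From each list, called genes and the 4 others of smallest p are named, and 1 gene of the receptor and JAK-STAT list is not reported here. Of the members, 46 matched a RefSeq symbol and 1 an older name. Alternatives were another pseudocount, filter, scaling, limma-voom, a replicate block and leaving out each library, and leaving out each library together with genes of a mean under 100 was added after the data were seen.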

Additional observations from a re-analysis of the deposited data

How the results depend on the processing

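Over the alternatives other than leaving out a library, 287 values for single genes kept their direction and side of the threshold, 8 lost a call and 5 gained one. Members lower numbered 5 with no filter on low values, where Ddx58, B2m, Mx2 and Cxcl10 lost their calls, and 7 to 11 elsewhere. Sensors lower numbered 1, and antigen presentation genes lower 0, with a pseudocount of 0.1, with no filter and with the replicate block. With the replicate block, 7 members were lower, and Ddx58 (adjusted p = 0.0574) and B2m (0.0685) lost their calls; the numbers do not pair the libraries (correlation 0.0047 over all genes, -0.0632 at a mean of 100 or more). MHC class I genes lower numbered 1 with a pseudocount of 0.1, with no filter and at a mean of 100 or more. In that last setting, 1 gene of the receptor and JAK-STAT list was also lower and 1 negative regulator was higher. The planned count tests and the scaling by whole counts were not run.

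Leaving out each library in turn, with and without genes of a mean under 100, gave 0 to 1082 genes lower and 0 to 1086 higher of all tested, 0 to 8 members lower, 0 to 3 sensors, 0 to 5 effectors and 0 to 1 antigen presentation genes. The lone library of a group is there assumed to vary like the other group. With all genes, the prior degrees of freedom fell to 1.93 to 4.83, with 32 to 125 genes of zero variance. With genes of a mean under 100 left out they were infinite, so each gene's variance came from the fitted trend alone. Log2 fold changes that reversed belonged to genes that had not passed with all libraries. They ranged from -0.29 to 0.13 for Irf3, -0.080 to 0.77 for Irf8, -0.10 to 0.053 for Stat2, -0.60 to 0.053 for Isg15, -0.79 to 0.12 for Rsad2, -0.13 to 0.017 for Ifi27, -0.75 to 0.26 for Tap1, -0.12 to 0.064 for Tapbp, -0.17 to 0.11 for Irf2, -0.66 to 2.23 for Mx1, -0.018 to 0.55 for Isg20, -0.75 to 0.16 for Oasl2, -0.57 to 0.057 for Bst2, -0.31 to 0.25 for Gbp2, -1.42 to 0.39 for Dhx58 and -1.33 to 0.73 for Oas1a. The cause was not tested. Depth limits genes with a low mean: 1 of 20 members passed at a mean of 10 to 100, beside 6.23% of all genes, and 0 of 4 at 1 to 10.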
